A study of Mus musculus with 8 samples.

Results

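The NLRP3 inflammasome is assembled from a small set of proteins, and other proteins act before, after or beside it. From both kinds 10 genes, all called components here, were followed in pancreatic islets. The islets came from mice with and without the cannabinoid 1 receptor (CB1R, gene Cnr1) in beta cells. The 10 genes, Nlrp3, Aim2, Nek7, Pycard, Casp1, Il1b, Il18, Gsdmd, P2rx7 and Panx1, were taken by name from 16955 annotated genes that could be compared, through every array probe whose RefSeq accession belongs to one of them. They had 13 probes: 3 for P2rx7, 2 for Nlrp3 and 1 for each of the others. Islets were hand-picked from male C57BL/6 mice on a standard diet, and their Cy3-labelled RNA was hybridised to 1-colour Agilent arrays. The mice were 4 of genotype β-CB1R+/+, the controls, and 3 of genotype β-CB1R-/-, the second of which had 2 repeat arrays that were averaged. By the study's methods both groups were Cnr1 flox/flox littermates injected with tamoxifen, and only the β-CB1R-/- mice carried MIP-Cre/ERT, a tamoxifen-inducible Cre driven by the mouse insulin promoter. Mice with MIP-Cre/ERT but an intact Cnr1 were not among the arrays, so the Cre transgene and the loss of Cnr1 cannot be told apart. The sample labels name the genotypes only CB1 WT and CB1 KO, and their text on the animals speaks of a global knockout, whereas the series' title and design name the beta cell-specific one (by the paper the mice got tamoxifen at 6 weeks and islets of its other experiments were taken about 1 month later; the age for the arrays is not given in the sources used here). All 8 arrays lay on 1 slide with the genotypes on opposite sides, so position and genotype cannot be told apart either.

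The inflammasome is known as a machine of innate immune cells, above all of macrophages. A sensor (NLRP3, or AIM2 for DNA) gathers the adaptor ASC, encoded by Pycard, which gathers caspase-1; the protease then matures IL-1β and IL-18 and cuts gasdermin D, whose fragments form pores in the cell membrane. NEK7 is the partner that NLRP3 needs in order to assemble, the ATP-gated channel P2X7 lets potassium out of the cell to trigger it, and pannexin 1 is a channel that releases ATP. Nlrp3 and Il1b are transcribed on demand after signals through NFκB, while the other parts of the machine are commonly present beforehand. In islets, resident macrophages are a known source of IL-1β, and IL-1β is known to harm beta cells. The comparison asked which parts of the inflammasome could be measured in whole islets, whether any differed with the loss of Cnr1, and how each stood against the macrophage gene Cd68 in the same mouse.

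Levels are given as log2 of the intensity relative to the 75th percentile of the same array, so 0 is a bright probe and a step of 1 is a doubling, and they can be compared between mice but not between probes. In whole islets, fewer cells of a type and less RNA per cell cannot be told apart. Cnr1 itself read −1.11, −0.77, −0.53 and −0.02 in β-CB1R+/+ mice 1 to 4, and −2.30, −3.13 and −2.28 in β-CB1R-/- mice 1 to 3. Every β-CB1R-/- mouse was below every control, by 1.97 ± 0.33 (SE) on the log2 scale or 3.91-fold, with 1 of the repeat arrays of β-CB1R-/- mouse 2 not above background and an adjusted p = 0.193 (limma with Benjamini-Hochberg adjustment over all 39160 compared probes). The hormone genes Ins2 (9.71 to 10.50 over the 7 mice) and Gcg (9.43 to 10.12) were bright in every mouse, and so was the acinar gene Cpa1 (10.19 to 11.07), so exocrine RNA was present in both groups. Over the marker lists the differences without Cnr1 were positive for 13 of 14 acinar genes (median 0.21), Cpa1 being the exception. They were negative for 9 of 10 beta cell genes (median −0.17), Ins2 being the exception. They were also negative for 4 of 5 alpha cell genes (median −0.59, 2 at an unadjusted p under 0.05 by limma). None passed the adjusted threshold by limma. The mean acinar level, relative to the mean of the 7 mice, was 0.35, −0.93, 0.09 and 0.09 in β-CB1R+/+ mice. In β-CB1R-/- mice it was 0.55, 0.50 and −0.65, so the groups overlapped, and β-CB1R+/+ mouse 2 was lowest. The part of these cell types in the results was not tested. The immediate-early gene Fos split the mice across genotypes: it was 6.31, 5.34 and 5.84 in β-CB1R+/+ mice 3 and 4 and β-CB1R-/- mouse 2, and between −1.59 and 0.75 in the other 4.

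Not all parts of the inflammasome could be measured in these islets. Pycard, Casp1, Il1b, Il18, Gsdmd, Nek7 and Panx1 were well above background on all 8 arrays. Nlrp3, Aim2 and P2rx7, that is both sensors and the ATP-gated channel, were measured less fully, with every one of their probes above background on some arrays only, from 7 of 8 arrays for P2rx7 probe A_52_P393314 down to 1 of 8 for A_51_P506733. Probes entered the comparison once 3 or more of the 7 mice had them above background, and 12 of the 13 did. The limit itself was not equal between arrays: the lowest intensity marked well above background was 34.35 on the array of β-CB1R+/+ mouse 1 and between 19.2 and 24.0 on the other 7.

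**Figure D1:**
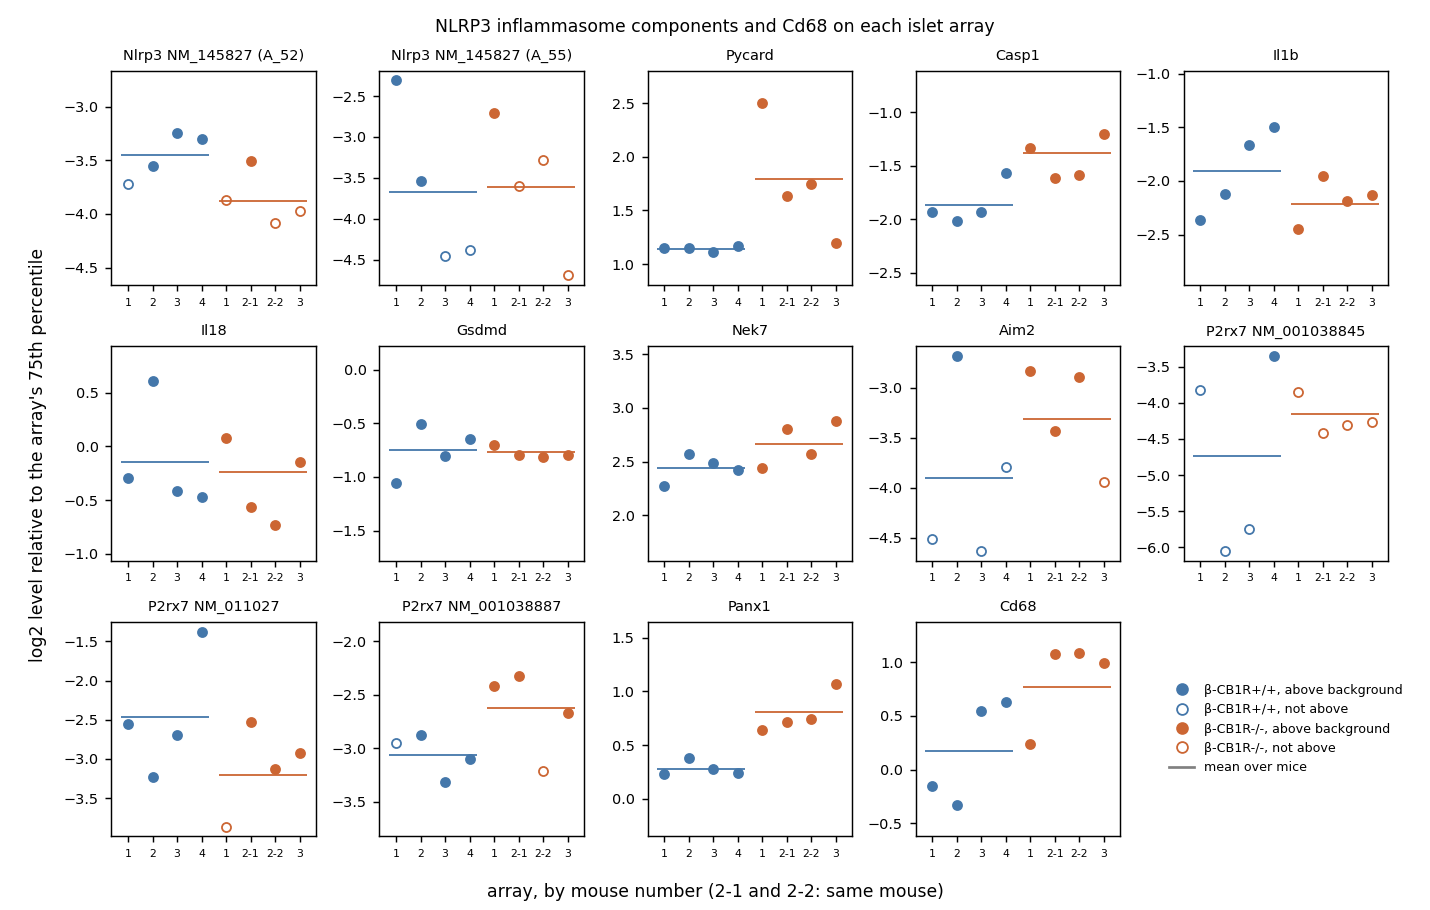
Log2 level of each probe (vertical axis, relative to the array's 75th percentile; every panel spans at least 2 units) on the 4 β-CB1R+/+ arrays and the 4 β-CB1R-/- arrays of 3 mice (horizontal axis, mouse number). Filled points were well above background and open points were not; lines are means over mice. All 8 points are filled for Pycard, Casp1, Il1b, Il18, Gsdmd, Nek7, Panx1 and Cd68, and open points appear for Nlrp3, Aim2 and P2rx7. Both Nlrp3 probes, A_52_P650540 (A_52) and A_55_P2273439 (A_55), are annotated to the same transcript.

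Taken one at a time, no component passed the adjusted threshold of 0.05: 0 of the 12 probes did, against 43 of all 39160 (0.110%), and the adjusted p of each was 0.999. At an unadjusted p under 0.05 there were 2 of 12, Casp1 and Panx1, both higher in β-CB1R-/- islets, against 3.59% of all probes. The genotypes did not overlap for 4 of 12 probes (33.3%), against 4.12% of all. Those were Pycard, Panx1 and 1 P2rx7 probe, higher in β-CB1R-/- islets (2.16% of all probes lay apart in that direction), and 1 Nlrp3 probe, lower (1.96%). That Nlrp3 probe was above background on 3 of 4 control arrays and 1 of 4 β-CB1R-/- arrays, so it entered through the group in which it read high, and the other compared probes of P2rx7 and of Nlrp3 overlapped between genotypes. Of the 7 probes above background on all 8 arrays, 2 lay apart, Pycard and Panx1. Over all 10 genes, each by its brightest compared probe, 5 differences were positive and 5 negative, with a median of 0.11 on the log2 scale. Over the 7 genes above background on all 8 arrays, 4 were positive and 3 negative, with a median of 0.23. Over all 16955 genes, which had to be above background in 3 of the 7 mice only, the median was −0.04 and 44.3% were positive.

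**Figure D2:**
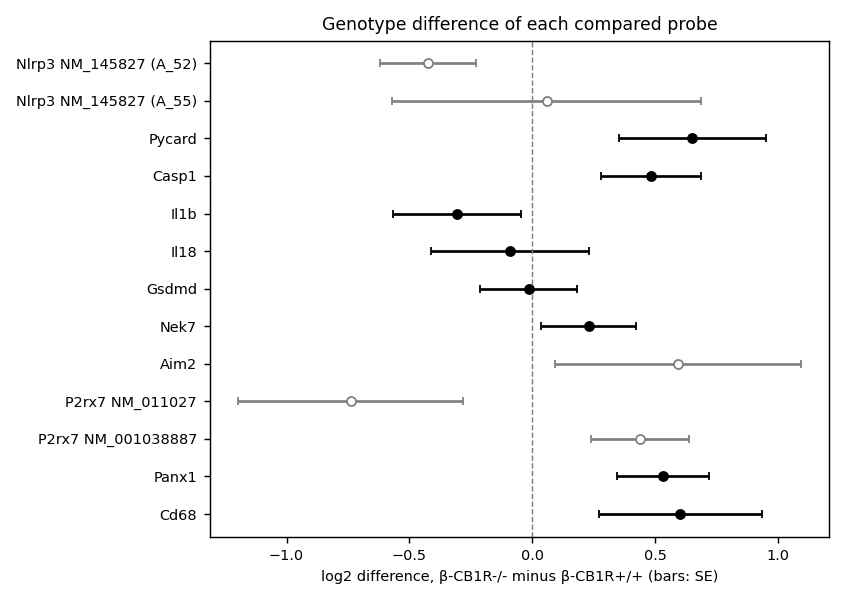
Log2 difference between genotypes (horizontal axis, β-CB1R-/- minus β-CB1R+/+, 3 against 4 mice) with its standard error for the 12 compared probes and Cd68. Black points are probes above background on all 8 arrays and open grey points are those above it on some. Casp1, Panx1 and Pycard lie to the right of 0, with 0.48, 0.53 and 0.65, and the 3 widest bars belong to open points, those of Nlrp3 on A_55_P2273439, of Aim2 and of P2rx7 on A_52_P393314.

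The sensor NLRP3 had probes that did not agree. On probe A_52_P650540 the level of Nlrp3 was −3.72, −3.55, −3.24 and −3.30 in β-CB1R+/+ mice 1 to 4 and −3.87, −3.80 and −3.97 in β-CB1R-/- mice 1 to 3. The β-CB1R-/- mice all lay below the controls, by 0.42 ± 0.20 (SE), 1.34-fold, at an unadjusted p = 0.0628 by limma. With the normexp background correction the difference was −0.18 (unadjusted p = 0.249 by limma). The probe was above background on 3 of 4 β-CB1R+/+ arrays and on 1 of 4 β-CB1R-/- arrays, however, and its intensities ran from 13.9 to 29.2, next to the limit; the repeat arrays of β-CB1R-/- mouse 2 differed by 0.57, more than the genotypes did.

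On the other probe, A_55_P2273439, Nlrp3 read −2.31, −3.54, −4.45 and −4.39 in β-CB1R+/+ mice and −2.70, −3.45 and −4.69 in β-CB1R-/- mice. The 2 genotypes spanned the same range, with a difference of 0.06 ± 0.63 (SE), and the probe was above background in mouse 1 of each genotype and in β-CB1R+/+ mouse 2 only. Over the 4 controls the probes ran in exactly opposite order: mice 3 and 4 were highest on A_52_P650540 and lowest on A_55_P2273439. A direction for Nlrp3 therefore depends on the probe.

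Nlrp3 and Il1b are the components known to be switched on through NFκB, and the bases before their starts are given for that reason. In RefSeq (GRCm38.p6) Nlrp3 has 2 starts on the plus strand of chromosome 11, and the 250 bases before the upstream one are chr11:59541319-59541568. Capitals mark matches, on either strand, to the loose NFκB-type motif GGGNNNNNCC and to TATAAA, known from core promoters; the second motif was chosen after the sequences had been read.
Nlrp3, upstream start: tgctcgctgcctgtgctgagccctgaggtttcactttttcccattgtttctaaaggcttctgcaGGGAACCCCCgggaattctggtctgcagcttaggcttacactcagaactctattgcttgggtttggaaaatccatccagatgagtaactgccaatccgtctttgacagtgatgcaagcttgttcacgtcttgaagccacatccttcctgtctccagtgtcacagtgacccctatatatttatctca
This window has 1 NFκB-type match, which begins 186 bases before the start, and the window before the downstream start has none. That motif is common: it occurs before 45.8% of 32851 starts in the table, so a match describes the letters and nothing more. Of the 11 starts that the table gives for the components other than Gsdmd, 4 had one, in Nlrp3, Casp1, Nek7 and P2rx7.

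AIM2, the sensor for DNA, was near the detection limit in both genotypes. The Aim2 probe read −4.51, −2.68, −4.63 and −3.80 in β-CB1R+/+ mice and −2.83, −3.17 and −3.95 in β-CB1R-/- mice. It was above background in 1 β-CB1R+/+ mouse (mouse 2) and in β-CB1R-/- mice 1 and 2, and the genotypes overlapped (difference 0.59 ± 0.50, unadjusted p = 0.271 by limma). The difference was 0.044 with the normexp background correction, 1.00 without β-CB1R+/+ mouse 2 (unadjusted p = 0.0297 by limma), and 0.35 without β-CB1R+/+ mouse 3 or without β-CB1R-/- mouse 1.

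NEK7, the partner of NLRP3, was above background on every array. The Nek7 probe read 2.27, 2.57, 2.49 and 2.42 in β-CB1R+/+ mice and 2.44, 2.69 and 2.88 in β-CB1R-/- mice. The ranges overlapped through β-CB1R-/- mouse 1, and the difference of 0.23 ± 0.19 (SE; 1.17-fold) had an unadjusted p = 0.269 by limma. It was 0.12 without β-CB1R-/- mouse 3 and 0.35 without β-CB1R-/- mouse 1.

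The adaptor showed the largest difference among the components that were above background on every array. Pycard read 1.15, 1.15, 1.11 and 1.16 in β-CB1R+/+ mice and 2.50, 1.69 and 1.20 in β-CB1R-/- mice. The controls were almost equal (SD 0.024, n = 4), while the β-CB1R-/- mice were spread widely (SD 0.66, n = 3), from just above the controls in mouse 3 to far above them in mouse 1. The mean difference was 0.65 ± 0.30 (SE), 1.57-fold, with an unadjusted p = 0.0616 by limma, and the exact permutation test over the 35 divisions of the mice gave p = 0.0286, the smallest it can give. Without β-CB1R-/- mouse 1 the difference was 0.30. The repeat arrays of β-CB1R-/- mouse 2 agreed to within 0.11.

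Caspase-1, the protease, was also above background throughout. Casp1 read −1.94, −2.02, −1.93 and −1.57 in β-CB1R+/+ mice and −1.33, −1.60 and −1.21 in β-CB1R-/- mice. The only overlap was β-CB1R+/+ mouse 4, at the level of β-CB1R-/- mouse 2. The difference was 0.48 ± 0.20 (SE), 1.40-fold, with an unadjusted p = 0.0451 by limma and an exact permutation p = 0.0857. With the normexp background correction it was 0.23 and its unadjusted p = 0.136.

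None of the 3 substrates of caspase-1 differed between genotypes past a threshold. Il1b, the gene of IL-1β, read −2.36, −2.12, −1.66 and −1.49 in β-CB1R+/+ mice and −2.45, −2.07 and −2.13 in β-CB1R-/- mice. The controls spanned the β-CB1R-/- mice except for β-CB1R-/- mouse 1, and the difference of −0.31 ± 0.26 (SE; 1.24-fold lower in β-CB1R-/-) had an unadjusted p = 0.276 by limma. It was −0.17 without β-CB1R+/+ mouse 4, −0.19 without β-CB1R-/- mouse 1 and −0.19 with the normexp correction. The 3 mice with high Fos, β-CB1R+/+ mice 3 and 4 and β-CB1R-/- mouse 2, also had the 3 highest Il1b levels, the last of them by 0.05 over β-CB1R+/+ mouse 2; the part of this state in the values was not tested.

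Il1b and Gsdmd were each printed 10 times on every array, which gave the error between spots, though not that between arrays. For Il1b the SD between spots of an array lay between 0.089 and 0.23, and the standard error of an array's mean was at most 0.072, against an SD between mice of 0.40 in controls (n = 4) and 0.20 in β-CB1R-/- (n = 3). The repeat arrays of β-CB1R-/- mouse 2 differed by 0.23, more than the error of the spots and more than the SD between β-CB1R-/- mice. For Gsdmd the standard error was at most 0.060 on control arrays, against an SD of 0.23 between control mice, and between 0.022 and 0.033 on β-CB1R-/- arrays, against 0.055 between β-CB1R-/- mice.

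**Figure D3:**
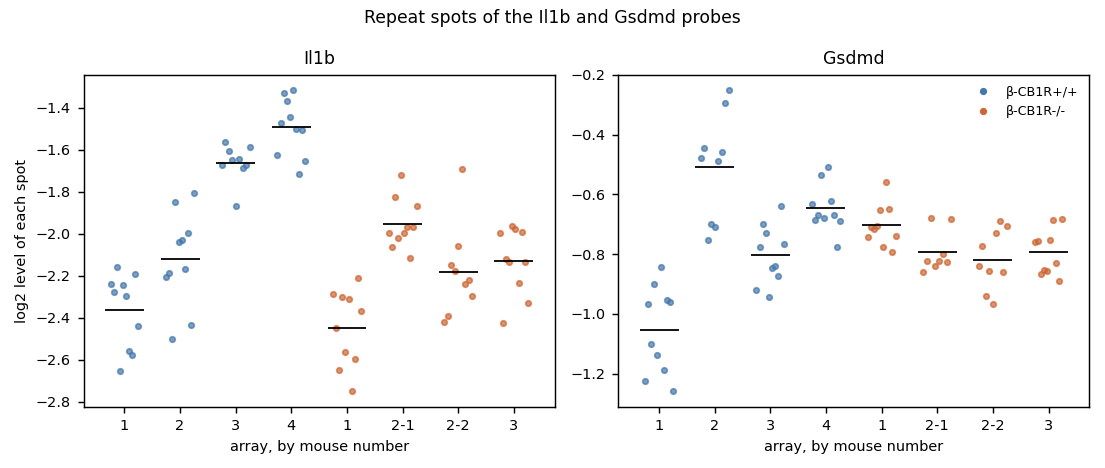
Log2 level of each repeat spot (vertical axis) of the Il1b probe (left) and the Gsdmd probe (right) on the 8 arrays (horizontal axis, mouse number), with the array's mean as a line; spots marked as outliers are left out. The Il1b means of β-CB1R+/+ mice 3 and 4, −1.66 and −1.49, are the highest of the 8, though their spots overlap with those of other arrays, and the Gsdmd spots of the β-CB1R-/- arrays overlap with one another.

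The start of Il1b lies on the minus strand of chromosome 2, and the 250 bases before it are chr2:129371140-129371389 (GRCm38.p6).
Il1b: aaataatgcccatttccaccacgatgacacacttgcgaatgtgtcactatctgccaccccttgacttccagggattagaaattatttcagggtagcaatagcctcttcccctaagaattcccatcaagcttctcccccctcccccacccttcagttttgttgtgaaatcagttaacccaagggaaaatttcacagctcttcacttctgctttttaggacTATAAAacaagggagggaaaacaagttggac
The capitals mark a TATAAA that begins 31 bases before the start. TATAAA occurs before 12.4% of all starts in the table, and of the 11 starts of the components it occurs before those of Il1b and Il18. No NFκB-type match of the letters above lies in this window, which says nothing of the factor.

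Il18, the gene of the other cytokine that caspase-1 matures, read −0.30, 0.61, −0.42 and −0.47 in β-CB1R+/+ mice and 0.08, −0.65 and −0.14 in β-CB1R-/- mice. A single control, mouse 2, lay above all the others, and the genotypes overlapped (difference −0.09 ± 0.32, unadjusted p = 0.781 by limma). Without β-CB1R+/+ mouse 2 the difference was 0.16, of opposite sign. That mouse also had the lowest mean level of the acinar list (−0.93) and of the duct list (−0.82), each relative to the mean of the 7 mice; what this has to do with Il18 was not tested.

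Gasdermin D, the pore former, did not separate the genotypes. Gsdmd read −1.05, −0.51, −0.80 and −0.65 in β-CB1R+/+ mice and −0.70, −0.80 and −0.79 in β-CB1R-/- mice. All β-CB1R-/- mice lay inside the range of the controls, and the difference was −0.01 ± 0.20 (SE, unadjusted p = 0.942 by limma).

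The channels around the inflammasome gave the smallest unadjusted p and the plainest disagreement. Panx1 (pannexin 1) read 0.23, 0.38, 0.27 and 0.24 in β-CB1R+/+ mice and 0.64, 0.73 and 1.07 in β-CB1R-/- mice. All 3 β-CB1R-/- mice were higher than all 4 controls, and the gap between the groups was wider than the spread of the controls (SD 0.068, n = 4). The difference was 0.53 ± 0.19 (SE), 1.45-fold, with an unadjusted p = 0.0219 by limma, an adjusted p = 0.999 and an exact permutation p = 0.0286. It lay between 0.40 and 0.62 when any single mouse was left out, and the repeat arrays of β-CB1R-/- mouse 2 nearly coincided.

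P2rx7 was represented by 3 probes that are annotated to 3 transcripts. On probe A_52_P393314 (NM_011027) it read −2.55, −3.24, −2.69 and −1.37 in β-CB1R+/+ mice and −3.86, −2.82 and −2.92 in β-CB1R-/- mice. The groups overlapped, with the highest value in β-CB1R+/+ mouse 4, and the difference was −0.74 ± 0.46 (SE, unadjusted p = 0.146 by limma). It was −0.38 without that mouse, −0.41 without β-CB1R-/- mouse 1 and −0.36 with the normexp correction. On probe A_55_P2183010 (NM_001038887) it read −2.95, −2.88, −3.31 and −3.10 in β-CB1R+/+ mice and −2.42, −2.77 and −2.67 in β-CB1R-/- mice.

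Here the β-CB1R-/- mice were all higher, by 0.44 ± 0.20 (SE), 1.35-fold, at an unadjusted p = 0.0591 by limma. The repeat arrays of β-CB1R-/- mouse 2 were 0.89 apart on this probe, 1 above background and 1 not, and with the normexp background correction the difference fell to 0.044. The third P2rx7 probe, A_51_P506733 (NM_001038845), was above background on the array of β-CB1R+/+ mouse 4 alone and was not compared. The 2 compared probes thus pointed in opposite directions, neither of them past the threshold.

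Cd68, a lysosomal glycoprotein gene used to mark macrophages, read −0.15, −0.33, 0.54 and 0.63 in β-CB1R+/+ mice and 0.24, 1.08 and 0.99 in β-CB1R-/- mice. The groups overlapped, and the difference was 0.60 ± 0.33 (SE), 1.52-fold, at an unadjusted p = 0.107 by limma. None of the 21 other macrophage genes passed the adjusted threshold, and 15 differences were positive and 6 negative (median 0.23), beside 44.3% positive over all genes. The difference was 0.42 ± 0.19 (SE, unadjusted p = 0.0599 by limma) for the complement gene C1qb, with groups that did not overlap, 0.97 ± 0.44 (unadjusted p = 0.0585 by limma) for the lysozyme gene Lyz2, and 0.04 ± 0.30 for Adgre1. Mrc1, the mannose receptor, had the only unadjusted p under 0.05, but it was above background on 1 of 4 control arrays and 4 of 4 β-CB1R-/- arrays and so entered the comparison through the group in which it read high. The mean level of the 20 macrophage genes above background on all arrays, Cd68 included, relative to the mean of the 7 mice, was −0.38, −0.19, −0.10 and 0.23 in β-CB1R+/+ mice and −0.15, 0.12 and 0.47 in β-CB1R-/- mice, so it too overlapped.

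No correlation with Cd68 over the 7 mice passed after adjustment for the 7 components on every array. Pearson's r was 0.64 for Casp1, 0.64 for Nek7, 0.60 for Panx1, 0.36 for Il1b, 0.07 for Pycard, −0.11 for Gsdmd and −0.70 for Il18. The lowest unadjusted p of these 7 relations was that of Il18 (exact permutation p = 0.0762, adjusted over the 7 relations p = 0.269; Spearman's rho −0.71, exact permutation p = 0.0881, adjusted p = 0.423), and for the other 6 the exact permutation p lay between 0.120 and 0.887 for r and between 0.139 and 0.556 for rho. Spearman's rho was 0.64 for Casp1, 0.50 for Nek7, 0.54 for Panx1, 0.39 for Il1b, 0.46 for Pycard and −0.29 for Gsdmd. Without the 2 mice farthest from the median of Cd68, β-CB1R+/+ mice 1 and 2, r fell to 0.11 for Casp1 and 0.10 for Il1b, turned to −0.48 for Pycard, and was 0.82 for Nek7, 0.52 for Panx1, −0.55 for Gsdmd and −0.58 for Il18. With the arrays scaled to their medians in place of the 75th percentile, r was 0.81 for Casp1, 0.79 for Nek7 and 0.78 for Panx1 (exact permutation p = 0.0194, 0.0317 and 0.0190, adjusted p = 0.0681, 0.0741 and 0.0681), and −0.089 for Il18. Nek7, Casp1 and Panx1 correlated with the mean of the macrophage list without Cd68 at 0.78, 0.71 and 0.65, Il1b at 0.39, Gsdmd at 0.25, Pycard at −0.14 and Il18 at −0.26.

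**Figure D4:**
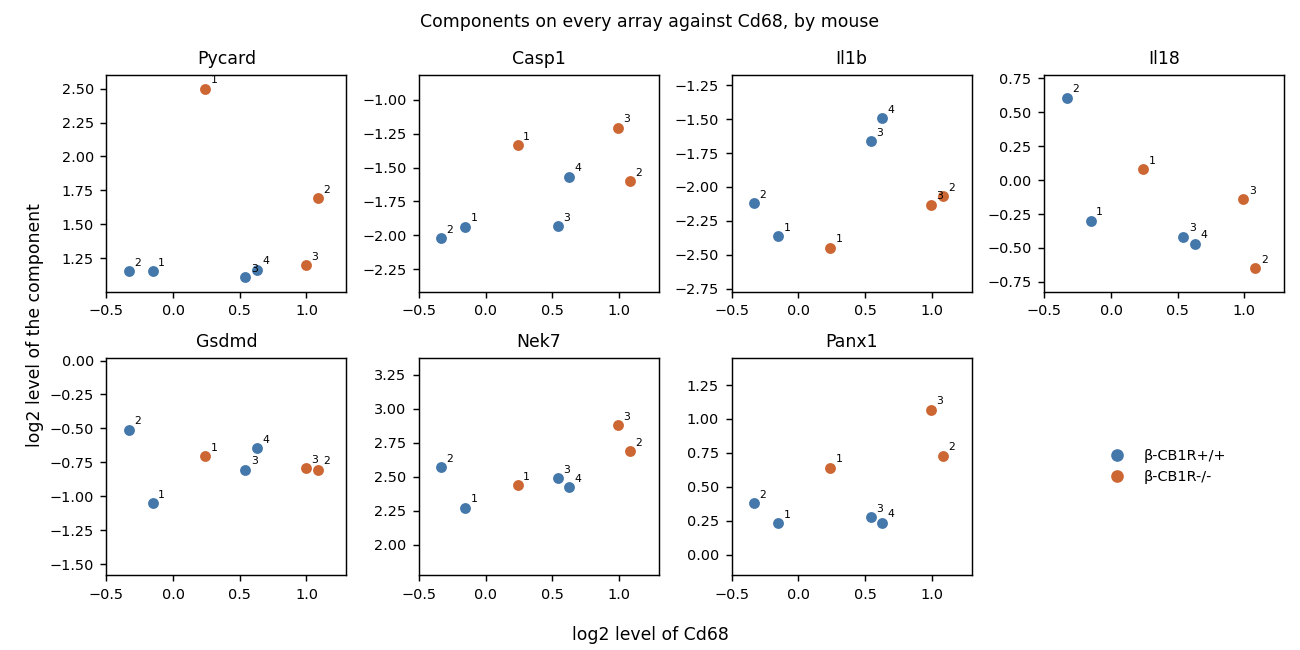
Log2 level of the 7 components that were above background on all arrays (vertical axes) against that of Cd68 (horizontal axes) in the 4 β-CB1R+/+ and 3 β-CB1R-/- mice; numbers are mouse numbers. Within each genotype Il1b is higher where Cd68 is higher, except between β-CB1R+/+ mice 1 and 2.

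Il1b was the component whose level against Cd68 separated the genotypes. The log2 level of Il1b minus that of Cd68 was −2.21, −1.79, −2.20 and −2.12 in β-CB1R+/+ mice and −2.69, −3.15 and −3.12 in β-CB1R-/- mice. All β-CB1R-/- mice were lower than all controls. The means were −2.08 ± 0.20 (SD, n = 4) and −2.99 ± 0.26 (SD, n = 3), a difference of −0.91 or 1.88-fold, with an exact permutation p = 0.0286, the smallest that the 35 divisions allow, and p = 0.2 after adjustment over the 7 components compared in this way. The difference combines an Il1b level that was lower by 0.31 with a Cd68 level that was higher by 0.60, and neither of these alone passed a test.

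With the normexp background correction the difference was −0.63 and with quantile normalisation −0.91, and with either the groups gave an exact permutation p = 0.0571 (adjusted p = 0.4). The direction was kept when any mouse was left out, with differences from −1.06 to −0.81. After subtraction of each genotype's mean, Il1b and Cd68 correlated across the 7 mice at r = 0.90, as a description, while over all mice they correlated at 0.36. So taken, r was 0.43 for Nek7, 0.33 for Casp1 and 0.18 for Panx1, beside 0.64, 0.64 and 0.60 over all mice. It was −0.11 for Gsdmd, −0.56 for Pycard and −0.78 for Il18. Against the mean of the 19 other macrophage genes above background on all arrays, which leaves out Cd68, Il1b read −2.0, −1.96, −1.55 and −1.72 in β-CB1R+/+ mice and −2.30, −2.16 and −2.60 in β-CB1R-/- mice. Again the groups did not overlap, with a smaller difference of −0.54, 1.46-fold (exact permutation p = 0.0286, adjusted p = 0.2). With the Cd68 level as a covariate in limma, the difference of Il1b was −0.69 (unadjusted p = 0.0290, adjusted p = 1.00), and with that macrophage mean as covariate it was −0.53 (unadjusted p = 0.0604). Il1b did not stand alone in the fit with Cd68: Pycard differed by 0.94 (unadjusted p = 0.0320 by limma) and the P2rx7 probes A_52_P393314 and A_55_P2183010 by −1.46 and 0.65 (unadjusted p = 0.00789 and 0.0263 by limma), each with an adjusted p = 1.00.

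The other 6 components overlapped between genotypes when taken against Cd68. Panx1 minus Cd68 was 0.11 ± 0.53 (SD, n = 4) in controls and 0.04 ± 0.38 (SD, n = 3) in β-CB1R-/- mice, a difference of −0.07. Against the mean of the 19 other macrophage genes Panx1 was higher by 0.29 in β-CB1R-/- mice, and the groups did not overlap (exact permutation p = 0.114, adjusted p = 0.267). Casp1 minus Cd68 was −2.04 ± 0.37 against −2.15 ± 0.56, and Pycard minus Cd68 was 0.97 ± 0.49 against 1.02 ± 1.09. Il18, Gsdmd and Nek7 minus Cd68 were lower by 0.69, 0.62 and 0.37 in β-CB1R-/- mice, each with overlapping groups and an exact permutation p of at least 0.229.

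The rest of the pathway was read from 4 lists. In none of them did a gene pass the adjusted threshold or an unadjusted p of 0.05. The groups did not overlap for 1 regulator, Irgm1, which was lower without Cnr1 (1.96% of all probes lay apart in that direction). It read 0.56, 0.80 and 0.91 in β-CB1R-/- mice and from 0.98 to 1.09 in β-CB1R+/+ mice (unadjusted p = 0.156 by limma). The differences of 13 other sensors were positive for 9 and negative for 4 (median 0.14). Those of 11 further effectors (caspases, gasdermins, cytokines and cell-death genes) were positive for 6 and negative for 5, with a median of 0.10. Those of 20 regulators were positive for 11 and negative for 9, with a median of 0.02, and those of 7 ion-flux genes positive for 3 and negative for 4, with a median of −0.07. Over all genes 44.3% were positive, with a median of −0.04.

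The lowest unadjusted p among them belonged to Naip6, Il1rn and Ctsl. Naip6, a sensor of bacterial flagellin, was above background on 1 of 4 control arrays and 4 of 4 β-CB1R-/- arrays, so its difference of 1.02 ± 0.55 (SE) was taken mostly against background values; it was 0.66 without β-CB1R+/+ mouse 1. Il1rn, the receptor antagonist that blocks IL-1, read −2.40, −4.51, −3.15 and −3.31 in β-CB1R+/+ mice and −2.47, −2.65 and −2.57 in β-CB1R-/- mice. All but 1 of the controls lay below the β-CB1R-/- mice, and the difference from all 4 was 0.78 ± 0.44 (SE, unadjusted p = 0.117 by limma). It was 0.39 without β-CB1R+/+ mouse 2, and 1 of the 4 control arrays was not above background. Ctsl, the lysosomal protease cathepsin L, had a difference of 0.37 ± 0.24 (SE, unadjusted p = 0.153 by limma), which was 0.24 without β-CB1R-/- mouse 1 and 0.58 without β-CB1R-/- mouse 3.

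Txnip, the redox protein through which reactive oxygen is held to reach NLRP3, was looked at outside the rule after its values were seen. Its level was 2.55, 2.83, 4.08 and 3.81 in β-CB1R+/+ mice and 3.50, 4.72 and 3.50 in β-CB1R-/- mice. The 3 highest values were those of the 3 mice with high Fos, and the genotypes overlapped (0.59 ± 0.47, unadjusted p = 0.242 by limma). None of the 11 NFκB targets compared passed the adjusted threshold. Their differences were positive for 10 and negative for Nfkbiz, with a median of 0.15, beside 44.3% positive over all genes. The mean level of the 8 targets above background on all arrays, relative to the mean of all mice, overlapped between genotypes. It was −0.31, −0.19, 0.15 and 0.20 in β-CB1R+/+ mice and −0.14, 0.45 and −0.15 in β-CB1R-/- mice. Only β-CB1R-/- mouse 2, which had high Fos, lay above the controls, and its part in the count was not tested. Differences between genotypes were 0.21 ± 0.37 (SE) for the chemokine gene Ccl2 and 0.02 ± 0.43 for Cxcl1. For Nfkbia and Tnfaip3 they were 0.11 ± 0.32 and 0.15 ± 0.42, and each of these was smaller than its standard error. That of Vcam1 was 1.19 ± 0.745 (unadjusted p = 0.148 by limma), with 2 of 4 control arrays and 4 of 4 β-CB1R-/- arrays above background. Cxcl10 had the only unadjusted p under 0.05 by limma, with a difference of 1.81 ± 0.77 (SE). However, it was above background on 1 of 4 control arrays and 4 of 4 β-CB1R-/- arrays and so entered through the group in which it read high.

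**Figure D5:**
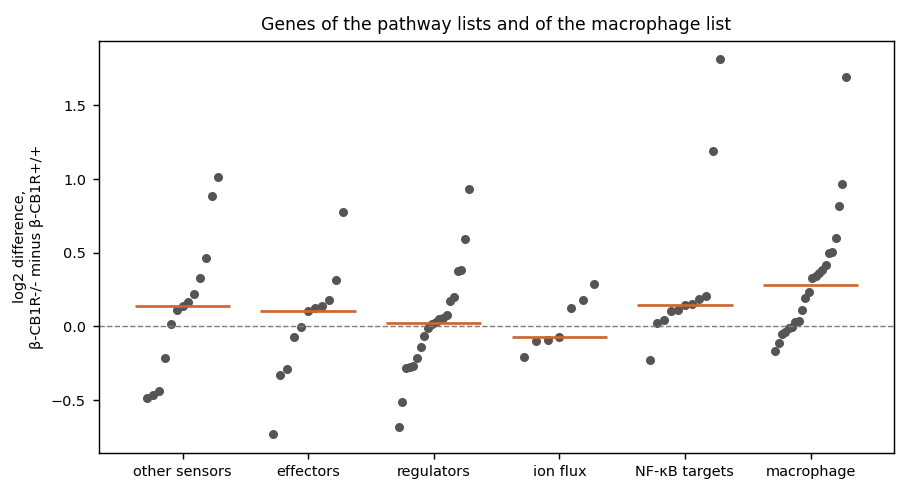
Log2 difference between genotypes (vertical axis, β-CB1R-/- minus β-CB1R+/+) of every compared gene in the 4 inflammasome lists, the NFκB targets and the macrophage list, with each list's median as a line. The medians of the inflammasome lists lie between −0.07 and 0.14, that of the NFκB targets is 0.15 and that of the macrophage list is 0.28.

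Among the 178 other genes of all the lists, those whose levels ran most like each component over the 7 mice were named by Pearson's r, as a description. Nek7 ran closest to Myd88 (0.95), Il18bp (0.93) and Vdac1 (0.88), and Panx1 closest to Nek7 (0.85), Casp1 (0.78) and Cxcl10 (0.78). Casp1 was most like the macrophage genes C1qb (0.86) and Mrc1 (0.83), then Panx1 (0.78). Mrc1 and Cxcl10 were above background on 1 of 4 control arrays each, so their r sets β-CB1R-/- levels mostly against background values. Il1b was most like Acta2 (0.93), a gene of contractile stellate cells, then Cd74 (0.85), of antigen-presenting cells, and Nlrp3 on probe A_52_P650540 (0.82).

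Pycard was most like Cd3g (0.89), Ctsl (0.82) and Sod2 (0.80), Il18 most like Cftr (0.87), Mavs (0.82) and Gsdme (0.72), and Gsdmd most like Casp8 (0.87), Mavs (0.87) and P2rx4 (0.86). Acta2 and Cd74 were both highest in β-CB1R+/+ mouse 4. Acta2 does not stand for its list: its difference was −0.73 ± 0.65 (SE), or −0.15 without β-CB1R+/+ mouse 4 and −1.16 without β-CB1R+/+ mouse 1, while 7 of the 10 stellate genes had positive differences (median 0.73), none past the adjusted threshold. Nor does the duct gene Cftr stand for its list: it was highest in β-CB1R+/+ mouse 2, where Krt19, Muc1, Sox9 and Spp1 were lowest. With 7 mice and 178 candidates high values of r arise easily, and the points share the array and its scaling.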

How the data were processed

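Islet RNA of 4 β-CB1R+/+ and 3 β-CB1R-/- mice was measured on 8 arrays. Spot intensities were deposited by the authors as Feature Extraction 11.5.1.1 wrote them, background-subtracted within the array and not scaled between arrays, and a Z score per spot, used only as an alternative. The 59305 intensities that belong to no control spot were converted to log2 relative to each array's 75th percentile, without spots marked as outliers. Spots of a probe were averaged and so were the repeat arrays. Accessions of 28026 of 55681 probes were matched to RefSeq symbols (GRCm38.p6). Genotypes were compared with limma 3.58.1 (R 4.3.3; two-sided), adjusted after Benjamini-Hochberg over 39160 probes above background in at least 3 mice and a threshold of 0.05. Single values were tested by exact permutation, two-sided on the size of the difference over 35 divisions or of the correlation over all pairings (scipy 1.17.1). The number of arrays limits the precision. The fit was tested on simulated data.

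The members and gene lists were chosen with earlier results of these data known. Named genes were all 10 components, Cd68, Cnr1, Ins2, Gcg, Cpa1 and Fos, the 3 pathway-list genes with the lowest unadjusted p, and the 3 list genes most like each component on all arrays; others were named after their values were seen. The lists held other sensors, effectors, regulators, ion-flux genes, NFκB targets and immediate-early genes, and markers of macrophages, neutrophils, T cells, B cells, endothelial, beta, alpha, acinar, duct and stellate cells. Alternatives were normexp background correction on the median spot intensities that the authors deposited (offset 50; mean intensities not used here), quantile normalisation, median scaling, the Z scores, no filter, a filter asking for all 8 arrays, each repeat array by itself, the replicate number as a block, Cd68 or the macrophage list mean as covariate, a t test as in the methods and leaving out each mouse in turn, which for the named list genes was added after seeing the data.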

Additional observations from a re-analysis of the deposited data

Results flagged for a closer look

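Il18 in β-CB1R+/+ mouse 2 stood apart from the other controls: its log2 level was 0.61, and that of the other 3 lay between −0.47 and −0.30. Its gap, divided by the range of the group, exceeded Dixon's critical value for 4 samples. This was 1 of 21 groups of 4 controls examined, where about 1.05 are expected by chance.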

How the results depend on the processing

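No component passed the adjusted threshold and no correlation with Cd68 passed after adjustment under any alternative run. For levels relative to Cd68 the exact test allows no p under 0.0286, or 0.2 after adjustment where 1 component alone reaches it, so that none passed says nothing of stability. Over all probes the number past the threshold, 43, was 23 without the filter, 24 with the filter on all arrays, 1 with Cd68 and 16 with the macrophage mean as covariate, and 0 with the methods' t test, which put 1412 probes and 4 components at an unadjusted p under 0.05; it was 22, 15, 5 and 19 without β-CB1R+/+ mice 1 to 4 in turn, and 42, 0 and 5 without β-CB1R-/- mice 1 to 3 (785 probes at an unadjusted p under 0.05 where it was 0). Same-numbered mice correlated at 0.55, −0.39 and −0.08 in their deviations from the genotype means, which cannot decide whether replicate numbers pair the mice. With the replicate block 0 probes passed (1714 at an unadjusted p under 0.05 by limma). In that fit β-CB1R+/+ mouse 4 is alone in its block and drops out of the difference. Nlrp3 on A_55_P2273439 read −0.18 and Gsdmd 0.021, the same as without that mouse.

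The sign turned for the following values. With normexp the differences were −0.11 for Nlrp3 on A_55_P2273439 and 0.30 for Il18. Il18 was 0.36 with Cd68 and 0.00013 with the macrophage mean as covariate. Gsdmd was 0.0047 with quantile normalisation, 0.0018 on the Z scores and 0.010 with Cd68 as covariate. Leaving out a mouse gave −0.40 to 0.60 for Nlrp3 on A_55_P2273439, −0.25 to 0.16 for Il18 and −0.11 to 0.067 for Gsdmd. The correlation with Cd68 was 0.18 for Il18 with normexp, and for Gsdmd 0.15 with quantile normalisation, 0.52 with median scaling and 0.34 on the Z scores; with the macrophage mean in place of Cd68 it was 0.25 for Gsdmd and −0.14 for Pycard. Leaving out a mouse gave r from −0.093 to 0.56 for Pycard and −0.85 to 0.50 for Gsdmd, and differences relative to Cd68 of −0.57 to 0.46 for Pycard, −0.41 to 0.15 for Casp1 and −0.25 to 0.13 for Panx1. The causes were not tested. The differences of Pycard (0.22 to 0.95), Casp1 (0.17 to 0.59), Panx1 (0.18 to 0.62) and Il1b relative to Cd68 (−1.06 to −0.29) kept their direction in every alternative run; the smallest size of each was that on the Z scores, which are another unit. With 7 mice, a p that misses the threshold does not show that the genotypes were alike, and no probe of Nlrp3, Aim2 or P2rx7 was above background on all 8 arrays.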
